A study of Mus musculus with 9 samples.

Results

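The loci of 9 retinoic acid pathway genes, out of 22225 protein-coding genes of the mm9 annotation, were examined in ATAC-seq peak lists from embryonic mouse cells. The genes were Aldh1a2, Cyp26a1, Cyp26b1, Cyp26c1, Rara, Rarb, Rarg, Crabp1 and Crabp2, chosen by their role in the pathway and not by any measured value. A locus was the gene body with 50 kb on each side, and a peak was placed in it by its midpoint. In ATAC-seq a transposase cuts and tags accessible DNA, and a peak is an interval where such cuts accumulate. The study sorted cells carrying GFP out of E9.5 embryos of the Swiss Webster stock, pooling several for a library, in order to compare open chromatin with and without the T-box factor gene Tbx1. All embryos carried Rosa26-GFPflox/+, a reporter that Cre switches on for good. The Mesp1-Cre Ctrl libraries (genotype Mesp1Cre;Rosa26-GFPflox/+) came from the Mesp1 lineage, which is mesodermal, and their tissue label names the pharyngeal apparatus and the heart. The Tbx1-Cre Ctrl libraries (Tbx1Cre;Rosa26-GFPflox/+) came from cells whose ancestors expressed Tbx1, in mesoderm and in pharyngeal and otic epithelium. Cre is knocked into Tbx1, so that these controls have 1 intact copy of Tbx1. The Tbx1-Cre cKO libraries (Tbx1Cre/flox;Rosa26-GFPflox/+) came from the same lineage with the remaining copy deleted. The tissue label of both Tbx1-Cre groups adds the back, whereas the methods of the study describe the pharyngeal apparatus without the heart for ATAC-seq. Each group had 3 libraries, and the sample table of the study lists 3 pools of embryos for each group, so p-values measure the spread between pools. The pool of Mesp1-Cre Ctrl 1 could not be matched to that table by the length of its list.

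Retinoic acid is a diffusible derivative of vitamin A that patterns the pharyngeal region and the outflow tract of the heart, where both too little and too much of it cause malformations. Aldh1a2 makes it from retinaldehyde, and the cytochromes Cyp26a1, Cyp26b1 and Cyp26c1 oxidise it for removal. Inside the cell it is bound by Crabp1 and Crabp2. It acts through the nuclear receptors Rara, Rarb and Rarg, which pair with retinoid X receptors on direct repeats of a 6-base element. Among the best known of these elements are repeats with a 5-base spacer (DR5) at the promoters of the receptor genes themselves and of Cyp26a1, so that the acid induces both its receptor and its own removal.

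The deposited lists give only where a peak lies, with no height, and read depth is unknown, so a missing peak is a peak that was not called and not a measure of closed chromatin. The lists differed in length throughout. They held 43298 to 49490 peaks in Tbx1-Cre Ctrl, 19772 to 29251 in Tbx1-Cre cKO and 25485 to 42650 in Mesp1-Cre Ctrl. The list of Mesp1-Cre Ctrl 1, the longest of its group, has a length that the sample table of the study does not show. Lineage counts of loci and regions that change without this list are therefore also described without it. With 3 libraries against 3 the exact permutation test has 20 relabellings and cannot give a p below 0.1, so no difference between groups could pass the usual threshold. Counts of loci whose groups do not overlap are therefore read against the share of all gene loci that behave the same way. Peaks at the targeted gene are given beside the labels, which they cannot check. At Tbx1 (chr16:18581806-18588113, minus strand) the libraries of Tbx1-Cre Ctrl held 1, 1 and 2 peaks within 1 kb of a start site, those of Mesp1-Cre Ctrl held 1, 1 and 0, and no Tbx1-Cre cKO library held one. A promoter called in every Tbx1-Cre Ctrl and no Tbx1-Cre cKO library was found for 1.39% of protein-coding genes. No library had a peak inside the Tbx1 gene body, so the lists cannot show the deletion itself. Among markers, the mesodermal genes Isl1 and Mef2c had a promoter peak in all 9 libraries. Of 7 genes of pharyngeal and otic epithelium, 2 to 5 had a promoter peak in a Tbx1-Cre Ctrl library, 2 to 4 in a Mesp1-Cre Ctrl library and 1 or 2 in a Tbx1-Cre cKO library. Epcam and Cdh1, which define epithelium, had none in Tbx1-Cre cKO, nor in library 2 of either control group, whereas Krt8 had one in all 9 libraries and Sox2 had one in Tbx1-Cre cKO 1. Of 5 mesodermal genes the ranges were 4 to 5, 3 to 5 and 3 to 4 in the same order. Neurog1 of the neural list had a promoter peak in the 3 Tbx1-Cre Ctrl libraries and in none of the others, whereas Sox10 and Elavl3 had none in any library. The part of these marker differences in the results below was not tested.

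Because direct repeats are how this pathway reaches DNA, their sequences in the loci are given first. The mm9 genome was searched on both strands for 2 copies, in the same orientation, of a receptor element with a spacer of 5, 2 or 1 bases (DR5, DR2 and DR1). The element was AGGTCA or one of its variants, which were AGTTCA, then GGGTCA, and as the last of them GGTTCA, and the copies could differ. The 9 loci held 12 DR5, 18 DR2 and 10 DR1. The sites at the start sites of Rarb, Cyp26a1, Rara and Rarg are printed 5′ to 3′ on the strand of the repeat, with the repeat in capitals, because they show which known kind of response element lay in a peak and which lay beside one. They lie at chr14:17407997-17408073 (minus strand), chr19:37772236-37772297 (minus strand), chr19:37770369-37770445 (plus strand), chr11:98821292-98821368 (plus strand) and chr15:102081218-102081294 (minus strand).
Rarb, 49 bp upstream of the internal start site: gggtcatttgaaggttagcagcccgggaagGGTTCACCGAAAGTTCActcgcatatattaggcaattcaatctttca
Cyp26a1, 24 bp upstream: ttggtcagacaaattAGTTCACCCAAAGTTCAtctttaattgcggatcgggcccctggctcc
Cyp26a1, 1891 bp upstream: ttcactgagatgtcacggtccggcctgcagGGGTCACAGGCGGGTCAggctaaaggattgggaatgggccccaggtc
Rara, 396 bp upstream of an internal start site: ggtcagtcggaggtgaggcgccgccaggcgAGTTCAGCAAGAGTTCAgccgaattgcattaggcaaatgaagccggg
Rarg, 479 bp upstream of an internal start site: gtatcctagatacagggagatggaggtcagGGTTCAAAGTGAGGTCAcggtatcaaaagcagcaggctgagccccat

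Of the 12 DR5 in the loci, 1 lay in a peak, the repeat at Rarb, and there it lay inside a peak of all 9 libraries. Over the genome, 280 of 8929 DR5 (3.14%) lay in a peak of any library and 19 (0.213%) in a peak of every library. The 2 repeats at Cyp26a1 lay in no peak. The upstream one sat just outside a called interval in 5 libraries. It was 69, 12 and 98 bases from the nearest peak in the Tbx1-Cre Ctrl libraries, 32 bases in Tbx1-Cre cKO 1 and 62 bases in Mesp1-Cre Ctrl 3. In the other 4 libraries the nearest peak was at least 8408 bases away. The repeat at the start site of Cyp26a1 was 143, 488 and 1040 bases from a peak in Tbx1-Cre Ctrl and between 1488 and 40859 bases from one in the other libraries. The Rara repeat fell between called intervals, 65 and 74 bases from a peak in Mesp1-Cre Ctrl 1 and 3, 183 bases in Tbx1-Cre Ctrl 1 and 133 bases in Tbx1-Cre cKO 1, and at least 5206 bases from one elsewhere. The Rarg repeat had no peak within 1191 bases in any library. None of the 18 DR2 and 1 of the 10 DR1, upstream of Crabp1, lay in a peak. A match is a description of these letters and does not show that a receptor was bound.

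All peaks of the 9 lists were merged into 73343 regions wherever they overlapped by 1 bp, and 120 of these regions lay in the 9 loci. In windows of 500 bp centred on the regions, DR5 occurred in 3 of the 120 (2.5%) and in 0.382% of all regions, and 2 of these 3 windows reached a repeat that no peak covered. DR2 occurred in 0 of 120 and in 0.473% of all, DR1 in 1 of 120 and in 0.948%. The T-box element GGTGTGA, searched on both strands, occurred in 9 of 120 (7.5%) and in 6.52% of all regions.

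The 9 loci together held 91, 64 and 69 peaks in the Tbx1-Cre Ctrl libraries, 48, 40 and 27 in the Tbx1-Cre cKO libraries and 64, 32 and 45 in the Mesp1-Cre Ctrl libraries, each peak counted once. Every Tbx1-Cre cKO library was below every Tbx1-Cre Ctrl library, and the means were 74.7 ± 14.4 and 38.3 ± 10.6 (SD, n = 3), a ratio of 0.513. The ratio of the whole lists was 0.523. In such bulk samples fewer cells of a type and lower signal per cell cannot be told apart. Per 10000 peaks of the list the loci held 18.4, 14.8 and 14.7 peaks in Tbx1-Cre Ctrl and 16.4, 16.6 and 13.7 in Tbx1-Cre cKO. These values overlapped, with means of 15.9 ± 2.11 and 15.6 ± 1.66 (SD, n = 3). Mesp1-Cre Ctrl held 15, 12.6 and 14.7 peaks per 10000, with a mean of 14.1 ± 1.34. The loci thus held fewer peaks in about the proportion in which the lists were shorter.

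**Figure D1:**
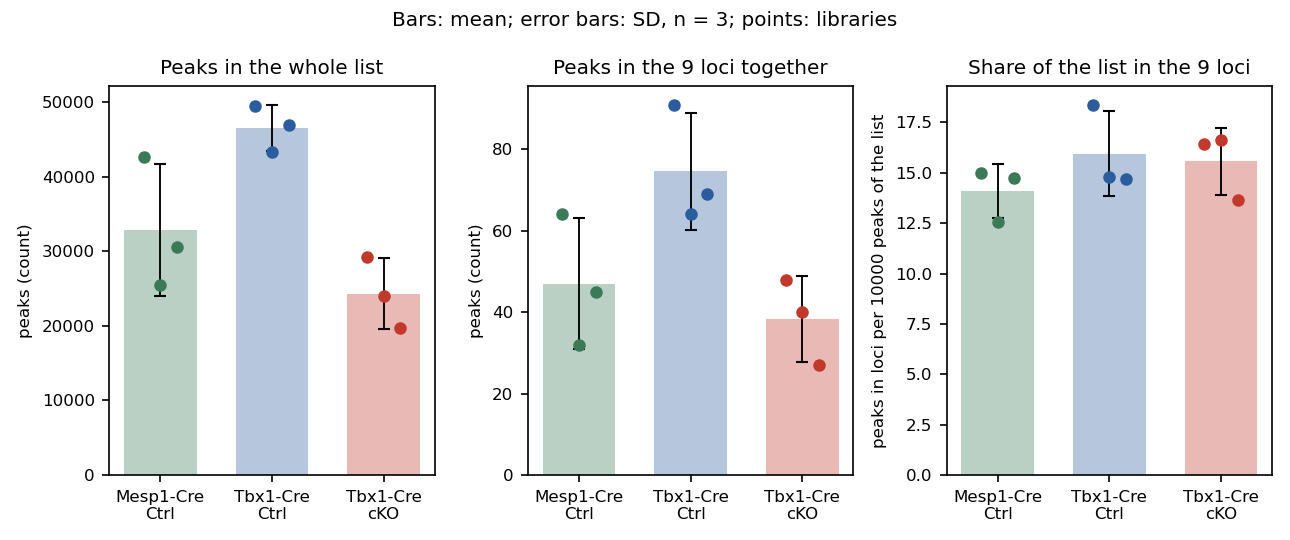
Peaks of each library in the whole list (left, count), in the 9 retinoic acid pathway loci (middle, count) and in the loci per 10000 peaks of the list (right), with libraries as points, bars for the mean and error bars for the SD of 3 libraries. The Tbx1-Cre cKO libraries sit below the Tbx1-Cre Ctrl libraries on the left and in the middle, and within their range or close to it on the right, where the means are 15.6 and 15.9.

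The ratio differed by the kind of peak. Distal peaks, farther than 1 kb from every annotated transcription start site, numbered 59, 40 and 46 in the loci in Tbx1-Cre Ctrl and 23, 21 and 12 in Tbx1-Cre cKO, a ratio of means of 0.386. In the whole lists the ratio for distal peaks was 0.355. Peaks at the promoters of neighbouring genes numbered 18, 13 and 14 in Tbx1-Cre Ctrl and 15, 15 and 10 in Tbx1-Cre cKO, which overlap, with a ratio of 0.889. Peaks at the members' own promoters numbered 14, 11 and 9 in Tbx1-Cre Ctrl and 10, 4 and 5 in Tbx1-Cre cKO, which also overlap, with a ratio of 0.559, beside 0.82 for all promoter peaks of the lists. Per 10000 distal peaks of the list, the loci held 16.1 ± 2.23 distal peaks in Tbx1-Cre Ctrl and 17.8 ± 2.74 in Tbx1-Cre cKO (SD, n = 3).

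Locus by locus, 6 of the 9 members, Cyp26a1, Cyp26b1, Cyp26c1, Rarb, Crabp1 and Crabp2, held fewer peaks in every Tbx1-Cre cKO library than in every Tbx1-Cre Ctrl library, beside 27.3% of the gene loci tested. The members lie in peak-rich loci. Among loci with at least as many Tbx1-Cre Ctrl peaks as the poorest of them, a limit set after the values were seen, the share was 40%. The windows of Cyp26a1 and Cyp26c1 overlap by 95591 bp, so those are nearly the same peaks counted for both. No member held more peaks in every Tbx1-Cre cKO library, which 0.161% of gene loci did. For distal peaks alone the count was 4 of 9, Cyp26b1, Rara, Rarb and Crabp1, beside 25.6% of loci. The median ratio of the Tbx1-Cre cKO to the Tbx1-Cre Ctrl mean was 0.375 over the 9 members and 0.65 over all gene loci, and for distal peaks it was 0.385 and 0.333.

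**Figure D2:**
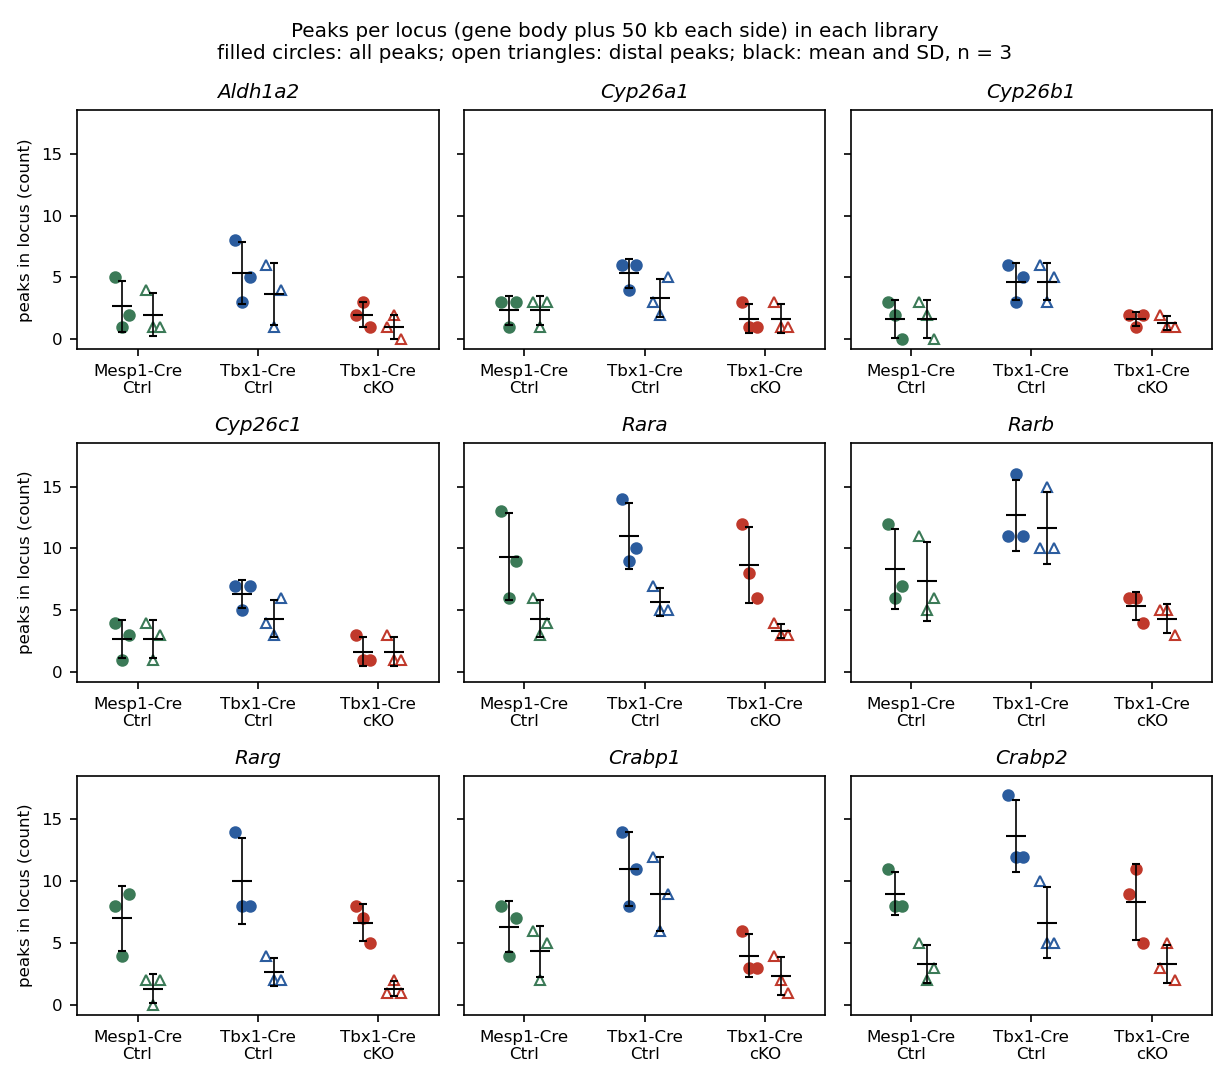
Number of peaks (vertical axis, count) in each of the 9 loci in the 3 libraries of each group, as filled circles for all peaks and open triangles for distal peaks, with black bars for the mean and SD of 3 libraries. At Rarb the Tbx1-Cre Ctrl libraries hold 11 to 16 peaks and the Tbx1-Cre cKO libraries 4 to 6, whereas at Rara, Rarg and Aldh1a2 the ranges of all peaks touch or overlap.

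Aldh1a2 (chr9:71063596-71144050, plus strand), the enzyme that makes retinoic acid in early mesoderm, had 8, 3 and 5 peaks in the Tbx1-Cre Ctrl libraries, 2, 3 and 1 in Tbx1-Cre cKO and 5, 1 and 2 in Mesp1-Cre Ctrl. The ranges of the first 2 groups met at 3 peaks. The promoter had a peak in every library of both Tbx1-Cre groups. The widest was 436, 434 and 452 bp wide in Tbx1-Cre Ctrl and 336, 200 and 248 bp in Tbx1-Cre cKO, so the groups did not overlap (mean 441 ± 9.87 and 261 ± 69 bp, SD, n = 3, exact two-sided permutation p = 0.1). The peak of 436 bp in Tbx1-Cre Ctrl 1 lay downstream of the start site, at chr9:71063710-71064266, and the other widest peaks upstream of it. At the upstream region, chr9:71063024-71063549, the Tbx1-Cre Ctrl widths were 312, 434 and 452 bp, which overlap those of Tbx1-Cre cKO. Peaks of Mesp1-Cre Ctrl at this promoter were 239 and 322 bp wide in libraries 1 and 3, and library 2 had none. An intergenic region at chr9:71173793-71174566, 110584 bp downstream of the start site, had peaks of 655, 431 and 359 bp in the Tbx1-Cre Ctrl libraries, 1 peak of 200 bp in Tbx1-Cre cKO 2 and none in Mesp1-Cre Ctrl.

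Among the genes that remove retinoic acid, Cyp26c1 (chr19:37760071-37767888) and Cyp26a1 (chr19:37772298-37776018) lie 4409 bp apart on the plus strand. Cyp26c1 had 7, 5 and 7 peaks in Tbx1-Cre Ctrl, 3, 1 and 1 in Tbx1-Cre cKO and 4, 1 and 3 in Mesp1-Cre Ctrl, so the Tbx1-Cre Ctrl libraries lay above all others (exact two-sided permutation p = 0.1 against each group). Cyp26a1 had 6, 4 and 6 peaks, 3, 1 and 1 peaks and 3, 1 and 3 peaks in the same order of groups. Cyp26c1 was the member with a promoter peak in all 3 Tbx1-Cre Ctrl libraries and in no other library. Such a promoter, present in every Tbx1-Cre Ctrl and no Tbx1-Cre cKO library, was found for 1.39% of all protein-coding genes, and present in every Tbx1-Cre Ctrl and no Mesp1-Cre Ctrl library for 0.454%. The peak lay at chr19:37759292-37760032, just upstream of the gene, and measured 734, 350 and 367 bp. The 291 bases that all 3 peaks shared (chr19:37759683-37759973, plus strand) are given because they are the shared part of this promoter interval, called in Tbx1-Cre Ctrl alone, with no capitals, since neither the receptor elements nor the T-box element occurs in them.
Cyp26c1 promoter: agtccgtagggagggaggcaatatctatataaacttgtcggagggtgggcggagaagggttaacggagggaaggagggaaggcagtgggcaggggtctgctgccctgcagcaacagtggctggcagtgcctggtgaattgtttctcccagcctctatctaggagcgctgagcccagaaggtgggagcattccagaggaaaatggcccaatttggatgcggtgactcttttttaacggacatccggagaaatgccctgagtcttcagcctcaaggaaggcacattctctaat

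Upstream of Cyp26a1, a region at chr19:37770968-37771777, between the 2 DR5 repeats, also held a peak in each Tbx1-Cre Ctrl library (736, 441 and 239 bp) and in none of the other 6. The 3 intervals had no base in common, since the one of library 1 bridged those of libraries 2 and 3, so the region is less firmly shared than the Cyp26c1 promoter. No library had a peak later than 370 bp into Cyp26a1, although the window ran to 53721 bp past its start. At the far end of the window an intron of the neighbouring gene Exoc6 held 2 contrasting regions. The one at chr19:37730758-37731550, 28917 bp upstream of Cyp26c1, had a peak in all 9 libraries, of 709, 593 and 730 bp in Tbx1-Cre Ctrl, 477, 555 and 430 bp in Tbx1-Cre cKO and 694, 478 and 490 bp in Mesp1-Cre Ctrl. In Tbx1-Cre cKO 2 and 3 and in Mesp1-Cre Ctrl 2 it was the only peak of the Cyp26c1 window. The one at chr19:37710745-37711379, 49009 bp upstream, had peaks of 389, 525 and 576 bp in Tbx1-Cre Ctrl, none in Tbx1-Cre cKO and 1 of 199 bp in Mesp1-Cre Ctrl 1.

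Cyp26b1 (chr6:84521938-84543740, minus strand), the third of these enzymes, had 6, 3 and 5 peaks in Tbx1-Cre Ctrl, 2, 1 and 2 in Tbx1-Cre cKO and 3, 2 and 0 in Mesp1-Cre Ctrl. It had no promoter peak in 8 of the 9 libraries, and the exception was a peak of 262 bp in Tbx1-Cre cKO 3. Its peaks were distal. An intronic region at chr6:84533520-84533982 held peaks of 240, 244 and 449 bp in Tbx1-Cre Ctrl, none in Tbx1-Cre cKO, and 240 and 367 bp in Mesp1-Cre Ctrl 1 and 2. A second intronic region, at chr6:84540169-84540746, held peaks in every Tbx1-Cre Ctrl library (237, 200 and 494 bp) and in Tbx1-Cre cKO 1 (211 bp), and none in Mesp1-Cre Ctrl. There the intervals of Tbx1-Cre Ctrl 1 and 2 shared no base, and that of library 3 bridged them. The most regular region lay 25404 bp from the nearest start site, past the 3′ end of the gene (chr6:84512877-84513579), with 703, 592 and 602 bp in Tbx1-Cre Ctrl against 576, 219 and 200 bp in Tbx1-Cre cKO, and 288 bp in Mesp1-Cre Ctrl 1 alone of its group.

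**Figure D3:**
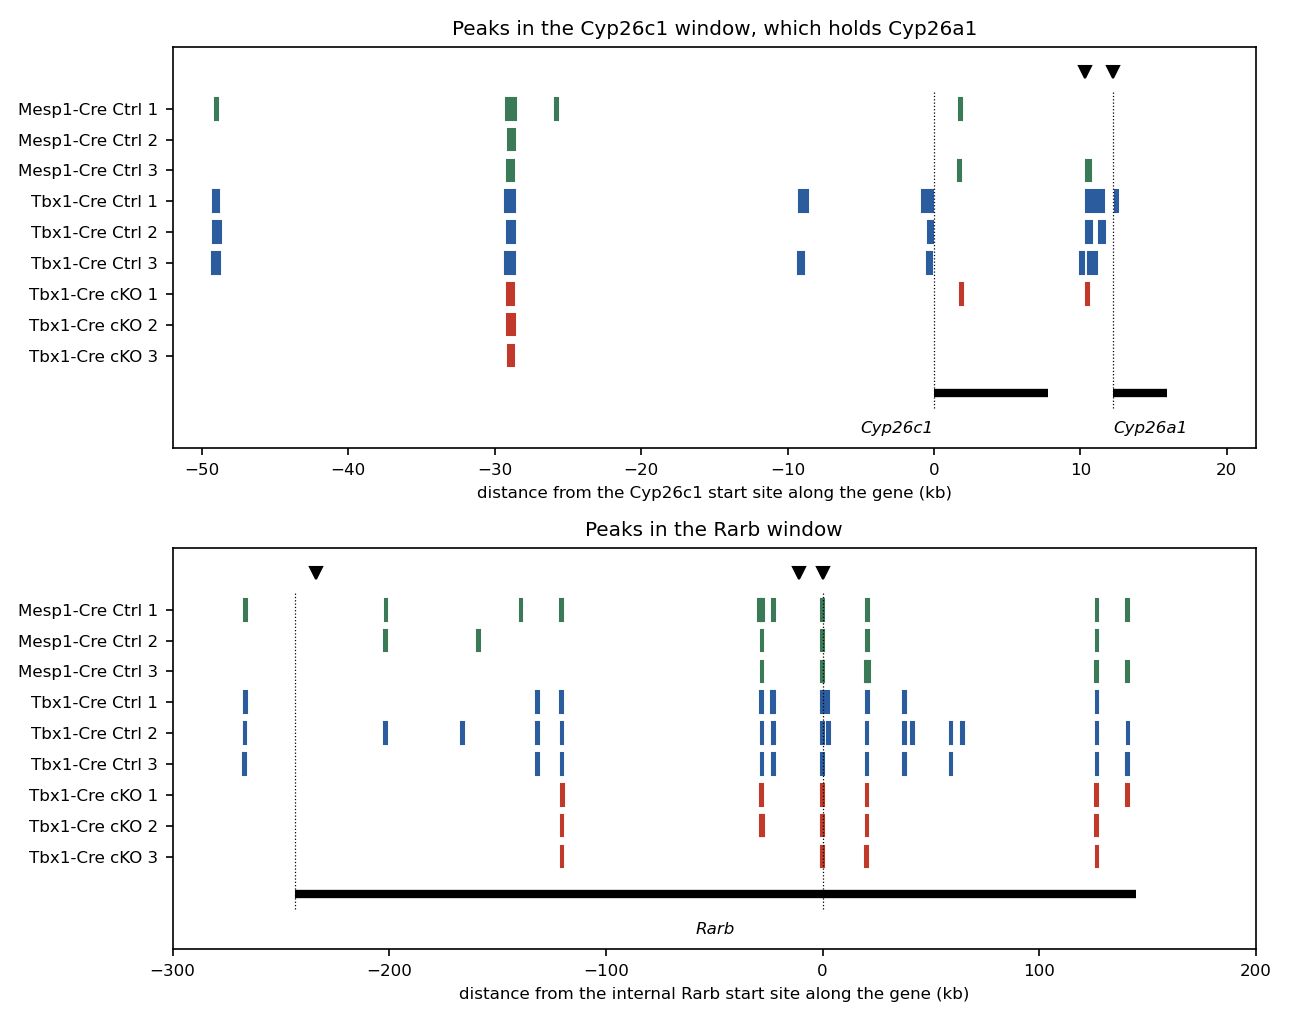
Called peaks of each library (coloured blocks, a row per library, drawn to scale but with a minimum width) in the Cyp26c1 window, which includes Cyp26a1, and in the Rarb window, against distance from the start site in kb (no peak lies in the part of the Cyp26c1 window beyond the right edge). Black bars are gene bodies, dotted lines start sites and triangles DR5 repeats, and the Cyp26c1 promoter is filled in the 3 Tbx1-Cre Ctrl libraries alone whereas the internal Rarb promoter with its repeat is filled in all 9.

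Among the receptors, Rarb (chr14:17263356-17651381, minus strand), a receptor gene that retinoic acid itself induces, had the largest difference in mean count among the members. Its internal promoter was called in every library. The Rarb window, 488026 bp, was also the longest of the members. In proportion Rarb was not the lowest, with a ratio of means of 0.421 beside a median of 0.375 over the members. It held 11, 16 and 11 peaks in Tbx1-Cre Ctrl, 6, 6 and 4 in Tbx1-Cre cKO and 12, 6 and 7 in Mesp1-Cre Ctrl. The Tbx1-Cre groups did not overlap (12.7 ± 2.89 and 5.33 ± 1.15 peaks, SD, n = 3, exact two-sided permutation p = 0.1). The internal promoter region, chr14:17407612-17408475, which contains the DR5 printed above, measured 777, 781 and 748 bp in Tbx1-Cre Ctrl, 656, 786 and 525 bp in Tbx1-Cre cKO and 822, 804 and 767 bp in Mesp1-Cre Ctrl. These widths overlapped between the Tbx1-Cre groups (exact two-sided permutation p = 0.4). No library had a peak at the other annotated start site, far upstream. The difference lay in distal peaks, 10, 15 and 10 against 5, 5 and 3. At 3 intronic regions and 1 upstream of the gene, every Tbx1-Cre Ctrl library had a peak and no Tbx1-Cre cKO library did. The region at chr14:17369933-17370655, 37692 bp downstream of the internal start site, had peaks of 723, 483 and 487 bp and none in Mesp1-Cre Ctrl. The region at chr14:17430352-17431163 had peaks of 288, 557 and 540 bp and 1 of 230 bp in Mesp1-Cre Ctrl 1. The region at chr14:17539348-17539637 had narrow peaks of 222, 218 and 290 bp and none in Mesp1-Cre Ctrl. The region upstream of the gene, chr14:17674275-17674948, had peaks of 263, 555 and 561 bp and 1 of 302 bp in Mesp1-Cre Ctrl 1. Beside these, 2 distal intronic regions had a peak in all 9 libraries and were narrower in every Tbx1-Cre cKO library. At chr14:17281001-17281731 the widths were 641, 683 and 632 bp against 280, 325 and 415 bp, and at chr14:17386762-17388164 they were 1126, 941 and 1121 bp against 617, 520 and 583 bp.

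Rara (chr11:98789132-98836256, plus strand), the broadly expressed receptor, had 14, 9 and 10 peaks in Tbx1-Cre Ctrl, 12, 8 and 6 in Tbx1-Cre cKO and 13, 6 and 9 in Mesp1-Cre Ctrl, which overlap in both comparisons. Its distal peaks, 7, 5 and 5 against 4, 3 and 3, did not overlap between the Tbx1-Cre groups. A promoter region at internal start sites, chr11:98798567-98799337, was called in 3 of 3 Tbx1-Cre Ctrl libraries (771, 310 and 603 bp). It was also called in Tbx1-Cre cKO 1 and 2 (500 and 269 bp) and in Mesp1-Cre Ctrl 1 and 3 (592 and 616 bp). At the internal start site with the DR5, a region at chr11:98821404-98821997 was called in 1 library of each Tbx1-Cre group (360 bp in Ctrl 1 and 464 bp in cKO 1) and in Mesp1-Cre Ctrl 1 and 3 (248 and 533 bp).

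Rarg (chr15:102065369-102087948, minus strand), a receptor known from skin and cartilage, had 14, 8 and 8 peaks in Tbx1-Cre Ctrl, 8, 7 and 5 in Tbx1-Cre cKO and 8, 4 and 9 in Mesp1-Cre Ctrl. It was the other member, beside Rarb, with a promoter peak in all 9 libraries, and 49.3% of protein-coding genes had one in all 9. That region, in an intron at chr15:102077001-102078463, was broken into several intervals in some libraries. Its widest peak measured 604, 1413 and 1216 bp in Tbx1-Cre Ctrl, 552, 379 and 443 bp in Tbx1-Cre cKO and 716, 304 and 912 bp in Mesp1-Cre Ctrl. Taken over all start sites of Rarg, the widest promoter peak was 1265, 1413 and 1216 bp against 552, 327 and 443 bp (mean 1298 ± 103 and 441 ± 113 bp, SD, n = 3, exact two-sided permutation p = 0.1). The peak of 1265 bp in Tbx1-Cre Ctrl 1 lay at the first start site of the gene, not at the internal one. A region near the start of a non-coding gene (chr15:102101050-102101747), 13451 bp upstream of Rarg, had peaks of 698, 444 and 481 bp in Tbx1-Cre Ctrl and none in the other 6 libraries.

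Of the binding protein genes, Crabp1 had a ratio of the Tbx1-Cre cKO to the Tbx1-Cre Ctrl mean of 0.364 and Crabp2 of 0.61. The median over all gene loci was 0.65. Crabp1 (chr9:54612555-54620917, plus strand) had 14, 8 and 11 peaks in Tbx1-Cre Ctrl, 6, 3 and 3 in Tbx1-Cre cKO and 8, 4 and 7 in Mesp1-Cre Ctrl, and nearly all of the difference was distal, 12, 6 and 9 peaks against 4, 2 and 1. The Tbx1-Cre groups did not overlap in either count (exact two-sided permutation p = 0.1 for each). Its promoter was called in 8 of 9 libraries, with 679, 582 and 587 bp in Tbx1-Cre Ctrl, 579, 516 and 501 bp in Mesp1-Cre Ctrl, and 575 and 208 bp in Tbx1-Cre cKO 1 and 3. A distal region at chr9:54650476-54651263 was called in all 9 libraries. It was 752, 734 and 720 bp wide in Tbx1-Cre Ctrl, above 449, 569 and 313 bp in Tbx1-Cre cKO and 355, 251 and 343 bp in Mesp1-Cre Ctrl. An intergenic region 4893 bp upstream of the gene (chr9:54607335-54607988), which contains the DR1, had peaks of 476, 234 and 333 bp in Tbx1-Cre Ctrl, 293 bp in Tbx1-Cre cKO 1 and none in Mesp1-Cre Ctrl. The DR1 itself lay in a peak of Tbx1-Cre Ctrl 1 and 3 and of Tbx1-Cre cKO 1, and between called intervals in Tbx1-Cre Ctrl 2.

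Crabp2 (chr3:87752588-87757298, plus strand), which carries retinoic acid to its receptors, lay in the locus with the highest mean count in Tbx1-Cre Ctrl, with 17, 12 and 12 peaks in Tbx1-Cre Ctrl, 9, 11 and 5 in Tbx1-Cre cKO and 11, 8 and 8 in Mesp1-Cre Ctrl. Many of these belong to other genes, since 3 to 6 peaks in each library lay at promoters of neighbours. A promoter region, chr3:87751500-87752363, was called in all 3 Tbx1-Cre Ctrl libraries (205, 356 and 352 bp), in Mesp1-Cre Ctrl 1 and 2 (575 and 568 bp) and in no Tbx1-Cre cKO library. The 3 Tbx1-Cre Ctrl intervals of that region shared no base, so that different parts of it were called. Of 2 neighbouring regions in and beside the gene Bcan, the one at chr3:87790809-87791582 was called in all 9 libraries, with 725, 684 and 774 bp in Tbx1-Cre Ctrl against 443, 284 and 464 bp in Tbx1-Cre cKO. The other, just beyond it at chr3:87791682-87792055, was called in the 3 Tbx1-Cre Ctrl libraries alone (270, 225 and 374 bp). A region 8820 bp downstream of the nearest Crabp2 start site (chr3:87764508-87765263) was slightly narrower in every Tbx1-Cre cKO than in every Tbx1-Cre Ctrl library. Its widths were 711, 693 and 733 bp in Tbx1-Cre Ctrl and 673, 673 and 582 bp in Tbx1-Cre cKO.

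Over the 120 merged regions, 11 had a peak in every Tbx1-Cre Ctrl and no Tbx1-Cre cKO library, 9.17% beside 6.73% of all regions, and 7 of these 11 were among the 84 distal regions, beside 7.95% of distal regions in all. No region of the loci had a peak in 2 or more Tbx1-Cre cKO libraries and in no Tbx1-Cre Ctrl library, which 0.136% of all regions had. Of the 120 regions, 41 were called in 1 library only (34.2%, beside 31.6% of all regions), 15 of them in Tbx1-Cre Ctrl 1, whose list was the longest. Their peaks were narrow, with a median of 262 bp, against a median of 832.5 bp for the widest peak of the 18 regions called in all 9 libraries. These 18 regions comprised 10 at promoters of neighbouring genes, 2 at members' own promoters and 6 distal ones, and 5.82% of distal regions in all were called in every library. At 12 of the 18 the widest peak was narrower in every Tbx1-Cre cKO library than in every Tbx1-Cre Ctrl library, beside 42.1% of the regions called in all 9 libraries. All 6 distal ones were among those 12, but the share for distal regions alone was not computed. By position, 32 of the 84 distal regions had their midpoint in an intron of a member and 31 were intergenic.

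**Figure D4:**
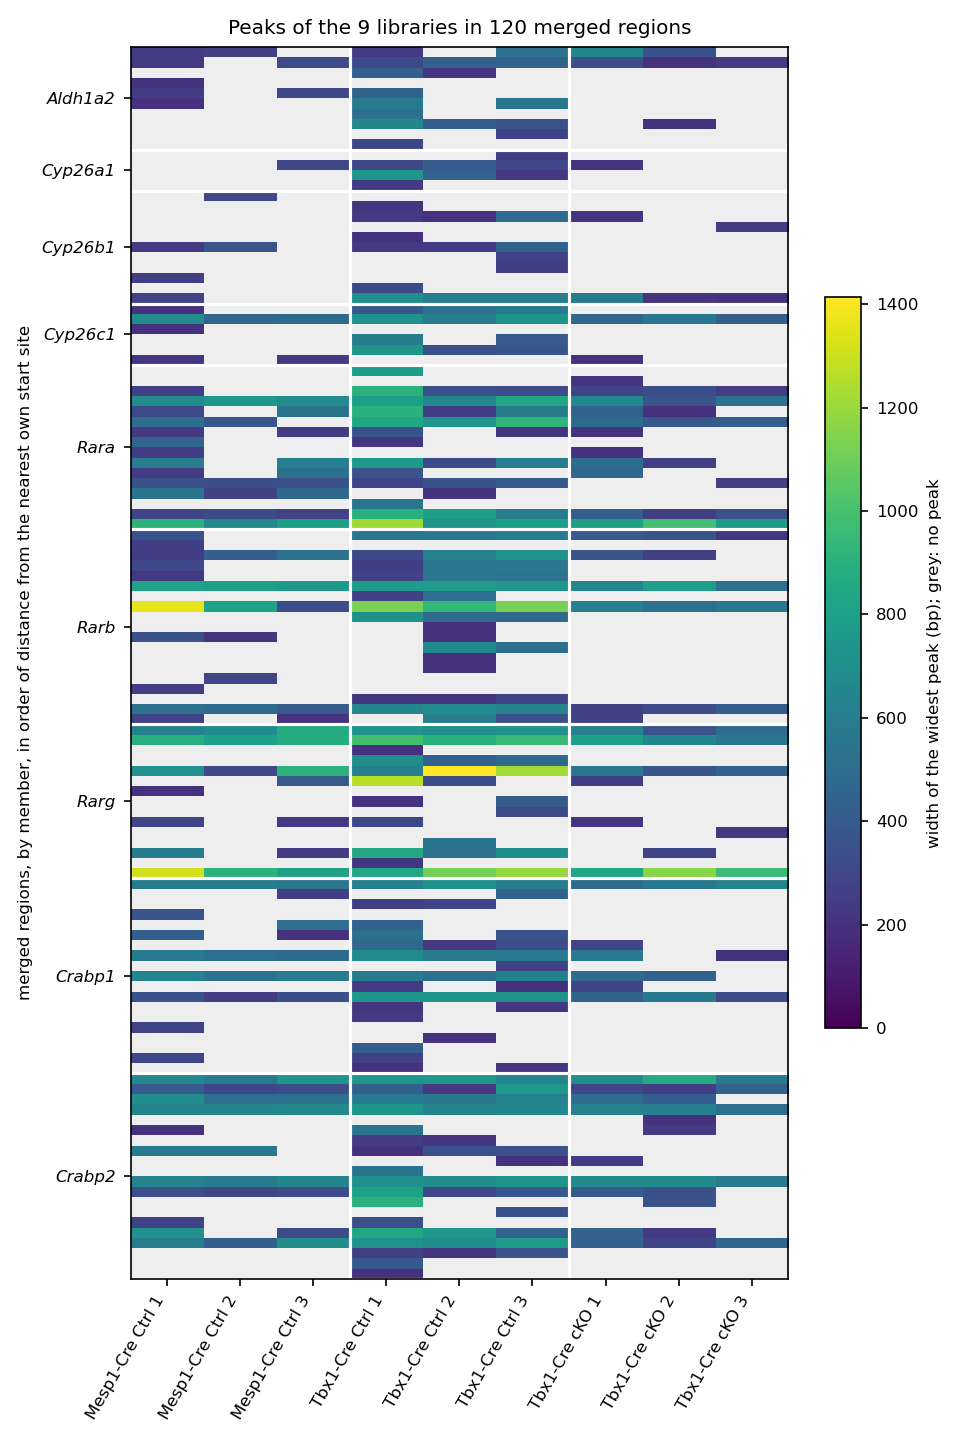
Each row is 1 of the 120 merged regions, grouped by member and ordered by distance from the nearest own start site, and each column a library. Colour gives the width of the widest peak in bp and grey means that no peak was called, and the 3 Tbx1-Cre Ctrl columns are filled in 104 regions in at least 1 library, against 53 for Tbx1-Cre cKO and 68 for Mesp1-Cre Ctrl.

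**Figure D5:**
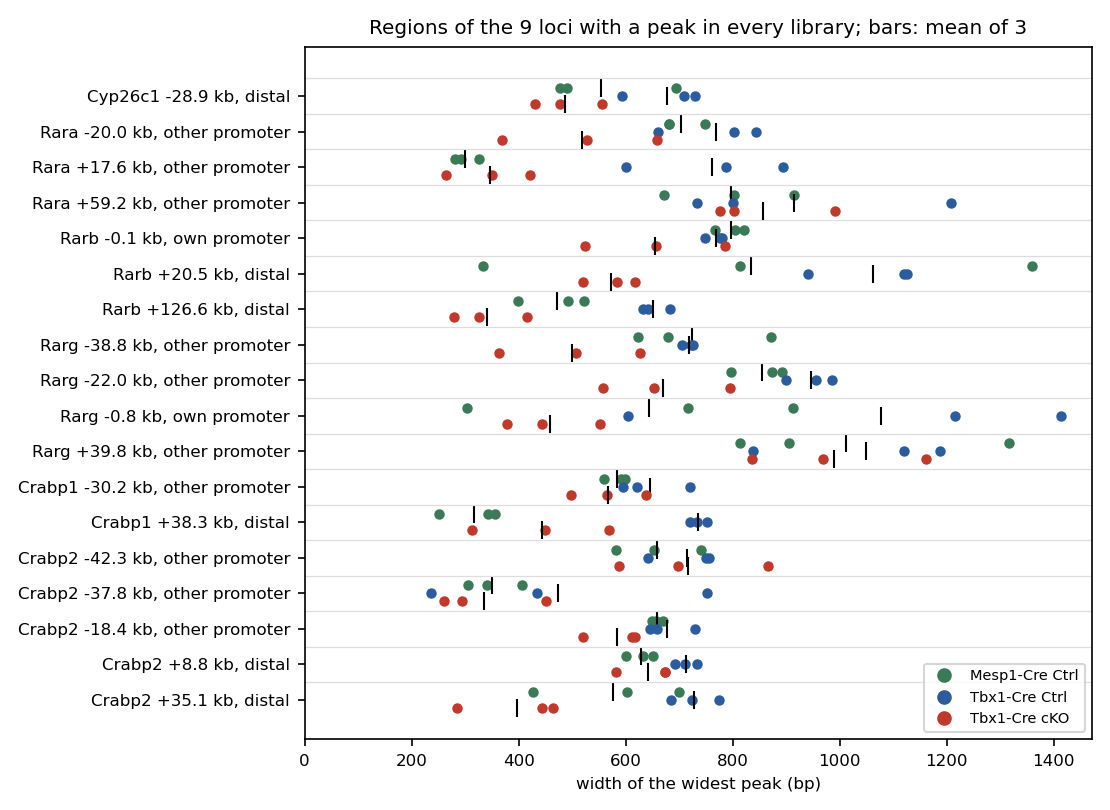
Width in bp of the widest peak (horizontal axis) in the 18 regions called in all 9 libraries, with a point for each library, a black bar for each group mean and the distance from the nearest own start site in the row name. In 12 of 18 rows all 3 Tbx1-Cre cKO points lie to the left of all 3 Tbx1-Cre Ctrl points.

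The lineage comparison, Mesp1-Cre Ctrl against Tbx1-Cre Ctrl, uses the same 3 Tbx1-Cre Ctrl libraries as the comparison above and is therefore not independent of it. The dissected tissue named in the labels differs between these groups, so lineage and dissection cannot be told apart. Cyp26a1, Cyp26c1 and Crabp2 held fewer peaks in every Mesp1-Cre Ctrl library, 3 of 9 members beside 10.4% of gene loci and 14.9% of loci at least as rich in peaks as the poorest member. The count was 7 of 9 without Mesp1-Cre Ctrl 1, 5 of 9 without Tbx1-Cre Ctrl 2, and 0 with lists of equal length. No member held more in every Mesp1-Cre Ctrl library, which 0.43% of gene loci did. For distal peaks the count was 0 of 9, beside 11.2%. That count also depended on Mesp1-Cre Ctrl 1. Without it, distal peaks were fewer and free of overlap at Cyp26b1, Rara, Rarb, Crabp1 and Crabp2. The share over all gene loci was not computed without that library. The loci together held 47 ± 16.1 peaks in Mesp1-Cre Ctrl (SD, n = 3). Its libraries 2 and 3 held 32 and 45, below every Tbx1-Cre Ctrl library, whereas library 1 met the lowest of them at 64. Of the 120 regions, 9 had a peak in every Tbx1-Cre Ctrl and no Mesp1-Cre Ctrl library, 7.5% beside 5.59% of all regions. Without Mesp1-Cre Ctrl 1 more regions qualified, at Rara, Rarb, Cyp26c1 and Cyp26b1, where that library alone of its group had a peak. The share of all regions was not recomputed without it. No region had a peak in every Mesp1-Cre Ctrl and no Tbx1-Cre Ctrl library, which 0.734% of all regions had.

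Of 18 other genes of retinoid metabolism, transport and response, 7 held fewer peaks in every Tbx1-Cre cKO library than in every Tbx1-Cre Ctrl library. Among them were Dhrs3, which reduces retinaldehyde, Aldh1a3, another retinaldehyde dehydrogenase, Rxrg, a retinoid X receptor, Nr2f1, which encodes COUP-TFI, and Ripply3, a partner of T-box proteins. The share, 38.9%, stands beside 27.3% of all gene loci and 40% of peak-rich ones. Dhrs3 had 6, 5 and 6 peaks against 2, 1 and 2. Rxrg had 6, 6 and 4 peaks against 2, 2 and 1, and none of its distal peaks was called in Tbx1-Cre cKO (4, 4 and 2 against 0, 0 and 0). Distal peaks did not overlap at 4 of the 18 (22.2%, beside 25.6% of all loci), among them Dhrs3, Rxrg and Ripply3. Rdh10, which makes the retinaldehyde that Aldh1a2 uses, went the other way, with 5, 3 and 3 peaks in Tbx1-Cre Ctrl and 5, 4 and 4 in Tbx1-Cre cKO, ranges that overlap. Between Mesp1-Cre Ctrl and Tbx1-Cre Ctrl, only Aldh1a1 of the 18 held fewer peaks without overlap, with 1, 0 and 0 against 2, 3 and 3 (5.56%, beside 10.4% of all loci). In distal peaks Aldh1a1, Lrat and Nr2f1 did (16.7%, beside 11.2%). Without Mesp1-Cre Ctrl 1 others joined in both counts, among them Dhrs3. Its peaks were 2 and 3 against 6, 5 and 6, and its distal peaks 2 and 2 against 4, 4 and 5. The shares were not recomputed without that library.

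The counts were also taken from lists of equal length. When each list was cut to its 19772 widest peaks, the length of the shortest, the loci together held 38, 29 and 28 peaks in Tbx1-Cre Ctrl and 31, 31 and 27 in Tbx1-Cre cKO. These overlap, with means of 31.7 ± 5.51 and 29.7 ± 2.31 (SD, n = 3, exact two-sided permutation p = 0.8), and no member's groups were then free of overlap. The cut kept peaks down to 545 to 579 bp in Tbx1-Cre Ctrl and down to 200 to 297 bp in Tbx1-Cre cKO, so the interval at the Cyp26c1 promoter remained in 1 of its 3 libraries.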

How the data were processed

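The ATAC-seq measurements are 9 deposited peak lists, 3 for each group given by the sample labels. Per the study's methods and the labels, the authors removed adapters with cutadapt, aligned to mm9 with Bowtie2 2.3.4.3, discarded multiply mapped or discordant pairs, duplicates and mitochondrial reads, and ran MACS2 on each library by itself. Each Mesp1-Cre list still held 2 mitochondrial peaks and the other lists 0. The deposited values are interval positions in bp without scores. The narrowest peak was 199 bp in the Mesp1-Cre lists and 200 bp in the others, so starts may be counted 1 bp apart. Genes, start sites and sequence came from NCBIM37 (mm9) and its GENCODE annotation.

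Peaks were counted in each protein-coding gene's window in Python 3.11.15 with numpy 2.4.6. Promoter peaks reached within 1 kb of any annotated start site, own-promoter peaks within 1 kb of a start site of the gene. Regions were peaks of all lists merged at 1 bp overlap. Groups were compared by exact two-sided permutation of library means. The study's read-count model could not be fitted to intervals. Counting, calls and merging were tested on simulated data. All 9 members are named, and distal regions by the groups that called them. Own-promoter regions, the shared Cyp26c1 interval, the region past Cyp26b1 and the one upstream of Rarg were named after their values were seen. Alternatives were windows of 10 and 100 kb, placement by overlap, promoters within 2 kb, start sites of coding transcripts only, stricter merging, shorter lists, a replicate block and leaving out each library. Members, lists and tests were chosen with earlier results of these data known. Gene loci without a peak in the 2 groups compared were left out of the background. Some genes of the list of other pathway genes are not reported here by name.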

Additional observations from a re-analysis of the deposited data

How the results depend on the processing

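Among the recomputed summary values, 99 kept their direction and stayed within 1.5 times (counts) or 1 SD (differences), 15 moved further and 3 changed sign. With lists cut to equal numbers of widest peaks, the member loci lower in every Tbx1-Cre cKO library numbered 0 for all peaks and 0 for distal peaks, those lower in every Mesp1-Cre Ctrl library 0, and regions with a peak in every Tbx1-Cre Ctrl and no Tbx1-Cre cKO library 0. The difference in peaks over the loci together shrank to -2, from -36.3, and narrower own-promoter peaks were seen at 1 of 2 testable members, as with the widest 75% of each list (1 of 2), against 2 of 3. The share of all genes with a narrower own-promoter peak was not computed. With lists of equal numbers the differences of single loci changed sign for Aldh1a2 (0.67 peaks), Rara (0.33, also 0.33 for distal peaks) and Crabp2 (0.33). These cuts remove narrow peaks by construction, most of them from the longest lists. With windows of 10 kb the regions numbered 7 and the difference over the loci was -22. With 100 kb the Mesp1-Cre Ctrl count was 5 and the difference per 10000 peaks was 1.12, against -0.38. That difference ranged from -1.02 to 0.839 over the libraries left out, and it turned positive without Tbx1-Cre Ctrl 1 (0.839) and without Tbx1-Cre cKO 3 (0.575).

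Leaving out 1 library gave 6 to 8 loci for all peaks, 4 to 6 for distal peaks, 3 to 7 for Mesp1-Cre Ctrl (7 without Mesp1-Cre Ctrl 1, 5 without Tbx1-Cre Ctrl 2), 2 to 3 members with a promoter peak everywhere, 11 to 17 regions (17 without Tbx1-Cre Ctrl 2), differences of -41.7 to -28.2 peaks, and 2 to 4 members with a narrower promoter peak (4 without Tbx1-Cre cKO 2). Same-numbered libraries did not deviate together in every pair (correlations of 0.153, -0.0176 and 0.101 between the Tbx1-Cre groups). With so few libraries these values cannot decide whether same-numbered libraries were prepared together. For Mesp1-Cre, going by list length, the numbers of the deposited lists also differ from those in the sample table of the study. With the replicate block, 8 loci were lower in 3 of 3 pairs for all peaks, 5 for distal peaks and 7 in Mesp1-Cre Ctrl, 2 members had narrower promoter peaks, the differences stayed -36.3 and -0.38, and the smallest p is 0.25. No paired value applies to the count of promoters called everywhere or to the count of regions.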

Other observations

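Few DR5 repeats lay in a peak of every library of a group. Of 8929 repeats in the mm9 genome, 79 lay in a peak of every Tbx1-Cre Ctrl library and 24 in a peak of every Tbx1-Cre cKO library, and the Rarb repeat was among the 19 found in all 9. The lists differ in length, and the difference between these counts was not tested.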
